A study of Saccharomyces cerevisiae and Saccharomyces cerevisiae x Saccharomyces paradoxus with 20 samples.

Results

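Sulfur amino acid synthesis in budding yeast is controlled by the activator Met4, which binds no DNA by itself and is brought to its target genes by the DNA-binding proteins Cbf1, Met31 and Met32 and by the cofactor Met28. The genes of these 5 regulators, MET4 (YNL103W), MET28 (YIR017C), MET31 (YPL038W), MET32 (YDR253C) and CBF1 (YJR060W), were taken by their systematic identifiers from the RNA tables, together with every nucleosome-free region (NFR, a stretch of open chromatin) that overlapped the 300 bp upstream of their start codons. Of the 5 genes, 4 were among the 4995 genes counted for RNA, and 3 of 3498 NFRs lay in the windows. MET32 was not listed among the genes counted for RNA and had no NFR in its window, so no value is given for it.

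The samples were haploid UWOPS05_217_3 and DBVPG1373, which are S. cerevisiae strains, haploid CBS432, an S. paradoxus strain, and the diploid hybrids UWOPS05_217_3-CBS432 and DBVPG1373-CBS432, all grown in the rich medium YEPD to log phase. Open chromatin was measured by FAIRE-Seq, in which formaldehyde-fixed chromatin is sonicated and DNA free of nucleosomes is recovered by phenol extraction, and poly(A) RNA was measured by RNA-Seq. For each assay 2 biological replicates were made of every strain and hybrid (20 samples), and each species was represented by 1 or 2 strains, so that strain and species cannot be told apart for CBS432. In a hybrid both alleles share 1 nucleus, so the ratio of the alleles shows differences that act on the same chromosome (in cis), and the part of the haploid ratio that is absent from the hybrid is the trans effect.

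Met4 is held in check by the ubiquitin ligase SCF-Met30 when sulfur compounds are plentiful,, a control that acts on the Met4 protein rather than on its RNA. When active, it drives the genes that take up sulfate, reduce it to sulfide and build homocysteine, cysteine and methionine. Cbf1 also binds centromeres, where it takes part in chromosome segregation, and Met31 and Met32 are closely related zinc finger proteins.

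Column totals were between 51389633 and 106845771 counts for haploid RNA, between 36188856 and 54971715 for RNA of a hybrid allele, between 2561228 and 4198250 for haploid FAIRE and between 1339393 and 2036883 for FAIRE of a hybrid allele. The labelled ploidy was checked with genes that only haploids express. Of 9 such genes 5 were measured, and their summed RNA was between 1324 and 1479 CPM (counts scaled to 1000000 per column) in haploids against 86.4 to 140 CPM in hybrid alleles. The a-specific genes (5 of 6 measured) summed to 3155 to 3316 CPM in the haploids of both species and to 353 to 381 CPM in hybrid alleles, and alpha-specific genes (3 of 4 measured) to 97.1 to 153 CPM and 85.7 to 122 CPM. Gene by gene, 4 of the 5 a-specific genes fell in the hybrid for each allele (edgeR). BAR1 did not, with log2 differences of 0.16 for the UWOPS05_217_3 allele and 0.13 for the CBS432 allele. All 5 haploid-specific genes fell, NEJ1 least for the CBS432 allele (log2 -0.75). RNA of the DBVPG1373 cross was not tested, because 1890 of its 5066 genes held 1 identical number in all 7 tables, MET4 (281) and CBF1 (116) among them.

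Coordinates are those of the deposited tables, for which the submitters' processing notes name sacCer3. MET4 lies on chromosome XIV at 427735 to 429753, has 2019 bp and is read from the forward strand. MET28 lies on chromosome IX at 383556 to 384119 on the reverse strand, and MET31 on chromosome XVI at 480535 to 481068 and CBF1 on chromosome X at 548758 to 549813 on the forward strand. MET28 shares 554 of its 564 bp with YIR017W-A, an open reading frame named for the opposite strand, and its counts equalled 91.9% to 95.8% of those of YIR017W-A in the 8 columns. Strand-specific counting was not stated, so reads of MET28 and of the opposite strand cannot be told apart, which bears on every MET28 value below.

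The regulators were not equally abundant. Per kb of coding length and over the 8 RNA columns, the median level was 99.7 CPM per kb for MET4, 93.9 for MET31, 71.5 for CBF1 and 36.1 for MET28, above the medians of 55.1%, 52.9%, 41.9% and 20.3% of all genes. The number of divergent sites at which each gene was counted was not given, and it also enters these levels. MET4, MET31 and CBF1 therefore lay near the middle of all genes and MET28 well below it.

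MET4, the activator itself, gave 208 and 215 CPM in haploid UWOPS05_217_3 (16269 and 20405 counts) and 191 and 195 CPM in haploid CBS432 (9797 and 20805 counts). In the hybrid the UWOPS05_217_3 allele gave 253 and 263 CPM (13809 and 9533 counts) and the CBS432 allele 186 and 195 CPM (10217 and 7121 counts). The CBS432 columns of both settings overlapped, and the S. cerevisiae allele was highest in the hybrid, where it overlapped no other group. The mean was 258 ± 7.36 CPM (SD, n = 2) for the UWOPS05_217_3 allele in the hybrid against 211 ± 5.47 CPM (SD, n = 2) in the haploid.

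CBF1, which encodes a basic helix-loop-helix protein, gave 80.8 and 65.4 CPM in haploid UWOPS05_217_3 (6335 and 6200 counts) and 70.4 and 69.6 CPM in haploid CBS432 (3619 and 7436 counts). The UWOPS05_217_3 allele in the hybrid gave 112 and 96.3 CPM (6119 and 3486 counts) and the CBS432 allele 74.6 and 76.5 CPM (4102 and 2793 counts). The haploids of the 2 species overlapped, and the S. cerevisiae allele in the hybrid again stood above all other columns.

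MET28, which encodes the leucine zipper cofactor that stabilizes Met4 on DNA together with Cbf1, showed the opposite order of alleles. It gave 14.2 and 20.5 CPM in haploid UWOPS05_217_3 (1111 and 1944 counts) and 21.0 and 20.2 CPM in haploid CBS432 (1081 and 2161 counts). In the hybrid the UWOPS05_217_3 allele gave 16.2 and 12.2 CPM (883 and 443 counts) and the CBS432 allele 26.0 and 23.7 CPM (1430 and 864 counts). The CBS432 allele in the hybrid was above all other columns, and the haploid strains overlapped.

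MET31, one of the zinc finger genes, gave 41.3 and 47.0 CPM in haploid UWOPS05_217_3 (3239 and 4451 counts) and 51.5 and 56.1 CPM in haploid CBS432 (2645 and 5990 counts). The hybrid gave 48.9 and 44.2 CPM for the UWOPS05_217_3 allele (2668 and 1601 counts) and 51.4 and 58.9 CPM for the CBS432 allele (2828 and 2151 counts). All 4 columns of CBS432 lay above all 4 columns of UWOPS05_217_3.

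**Figure D1:**
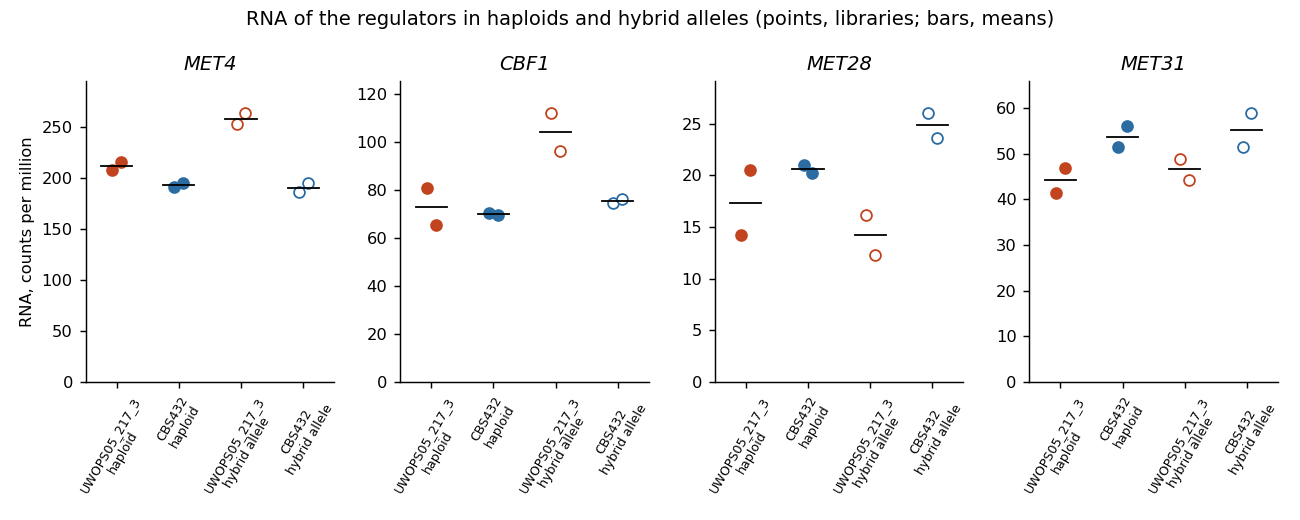
RNA of MET4, CBF1, MET28 and MET31 in CPM (y axis from 0) for the 2 haploid strains and the 2 alleles of their hybrid on the x axis, with 1 point per library and bars at the means. The UWOPS05_217_3 alleles of MET4 (253 and 263 CPM) and CBF1 (112 and 96.3 CPM) are highest in the hybrid, and for MET28 the CBS432 allele in the hybrid (26.0 and 23.7 CPM) is.

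The first comparison asked whether the regulators' RNA differed between the haploid strains of the 2 species. None of the 4 regulators passed the threshold of an adjusted p of 0.05 in edgeR's quasi-likelihood test, in a comparison in which 54.6% of all genes did, and 1 had an unadjusted p under 0.05. The log2 ratio of UWOPS05_217_3 over CBS432 was 0.12 for MET4 (SE 0.08, adjusted p = 0.251), 0.05 for CBF1 (SE 0.11, adjusted p = 0.760) and -0.26 for MET28 (SE 0.20, adjusted p = 0.305). That of MET31 was -0.30 (SE 0.12, adjusted p = 0.0663), with the CBS432 library higher in all 4 pairings of libraries. DESeq2 gave MET31 an adjusted p of 0.0453, and leaving out replicate 2 of UWOPS05_217_3 an adjusted p of 0.0293, so that its call depended on the setting.

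The second comparison set the alleles against each other within the hybrid. All 4 regulators differed (adjusted p in edgeR), against 68.6% of all genes tested. For 2 of them the S. cerevisiae allele was higher (31.8% of all genes) and for 2 the S. paradoxus allele (36.7%). The S. cerevisiae allele was higher for MET4, by a log2 ratio of 0.43 (SE 0.05, adjusted p = 2.86e-12), and for CBF1, by 0.45 (SE 0.08, adjusted p = 7.39e-07). The S. paradoxus allele was higher for MET28 (log2 ratio -0.83, SE 0.18, adjusted p = 1.66e-05) and for MET31 (log2 ratio -0.25, SE 0.11, adjusted p = 0.0297). A ratio of -0.83 is a 1.77-fold higher level of the CBS432 allele of MET28, while MET4 and CBF1 favoured the other allele 1.35-fold and 1.37-fold. These tests rest on 2 hybrid libraries and on a variance that edgeR partly pools over genes, so the small adjusted p values depend on the model. Without the library as a block, the adjusted p in edgeR was 0.00121 for MET4, 0.00687 for CBF1, 0.00819 for MET28 and 0.115 for MET31.

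As shares of the 2 alleles in each hybrid library, the UWOPS05_217_3 allele of MET4 made up 57.5% and 57.2% of counts, with 95% Wilson intervals of 56.8% to 58.1% and 56.5% to 58.0%. For CBF1 the shares were 59.9% and 55.5%, with intervals of 58.9% to 60.8% and 54.3% to 56.7%. MET28 gave 38.2% and 33.9%, with intervals of 36.2% to 40.2% and 31.4% to 36.5%. The 2 libraries agreed closely for MET4 and lay outside each other's counting intervals for CBF1 and for MET28. For MET31 the shares of 48.5% (47.2% to 49.9%) and 42.7% (41.1% to 44.3%) also differed by more than counting error, and 1 of the libraries was near equality (log2 ratios of -0.08 and -0.43). These intervals cover counting error only, and they are too narrow where a read was counted at several sites. The MET31 call was lost with DESeq2 (adjusted p = 0.115) and with each allele scaled by TMM (adjusted p = 0.0740).

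The trans effect, the haploid log2 ratio minus the hybrid log2 ratio, passed the threshold for 1 of 4 regulators, against 25.8% of all genes, and 2 of 4 had an unadjusted p under 0.05. It was MET4, at -0.29 (SE 0.08, adjusted p = 0.0299 in edgeR), which means that the haploid ratio was lower than that of the alleles. CBF1 had a difference of -0.40 in the same direction that did not pass (SE 0.14, adjusted p = 0.0680). The differences were 0.56 for MET28 (SE 0.26, adjusted p = 0.152) and -0.03 for MET31 (SE 0.15, adjusted p = 0.900), and the median over all genes was 0.07. Over all genes 761 trans effects were higher and 527 lower, and with each allele scaled by TMM 566 and 758, a scaling that left MET4 past the threshold and added CBF1. The MET4 call was lost when either hybrid library was left out (adjusted p = 0.187 without replicate 1 and 0.170 without replicate 2). MET4 also did not pass without the replicate block, which pairs the haploid libraries by number (-0.29, adjusted p = 0.0748 in edgeR). Leaving out replicate 1 of either haploid strain moved MET28 to 0.85 and CBF1 to -0.54. Both fits gave nearly the same values, because the block then leaves replicate 1 of the other strain without a partner. They are therefore the same check, which also holds for the trans fits below without a library of either haploid strain.

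**Figure D2:**
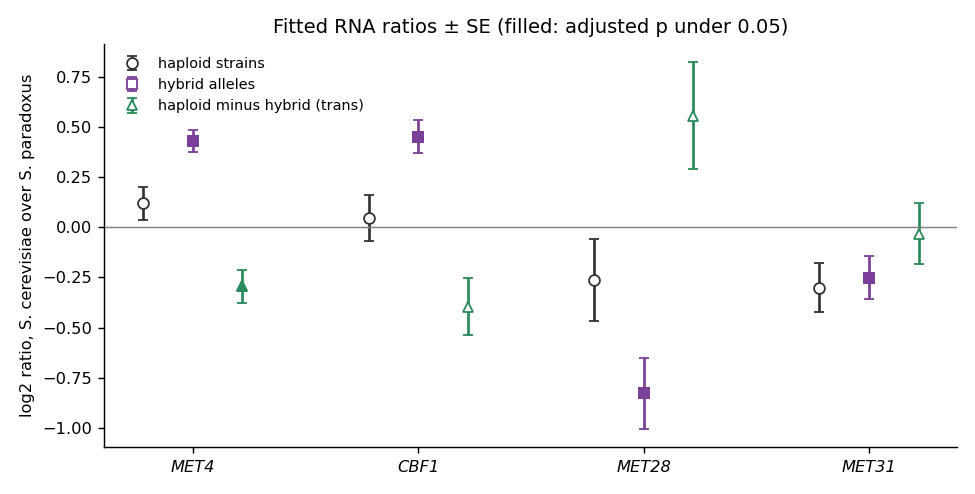
Fitted log2 RNA ratios of S. cerevisiae over S. paradoxus (y axis) with bars of 1 SE for each regulator (x axis) in the haploid strains, between the hybrid alleles and as their difference. Filled symbols passed an adjusted p of 0.05: all 4 ratios between alleles and the MET4 difference of -0.29, and no ratio between haploids.

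Each allele was also followed from the haploid into the hybrid. The S. cerevisiae alleles of MET4 and CBF1 rose, by 0.37 (SE 0.09, adjusted p = 0.0170) and 0.59 (SE 0.12, adjusted p = 0.0104) on the log2 scale, so that 2 of 4 regulators passed in edgeR against 22.7% of all genes (571 higher and 563 lower, or 396 and 873 when scaled by column totals). Those of MET28 and MET31 had log2 differences of -0.21 (adjusted p = 0.555) and 0.16 (adjusted p = 0.417). Of the S. paradoxus alleles 0 of 4 passed, against 7.29% of all genes, 0 of 4 had an unadjusted p under 0.05 and 0 of 4 passed in DESeq2. Their log2 differences were -0.00 for MET4, 0.05 for MET31, 0.13 for CBF1 and 0.28 for MET28. Without replicate 1 of the hybrid neither rise passed (adjusted p = 0.0735 for MET4 and 0.0618 for CBF1), and without replicate 2 only CBF1 did. These comparisons share the haploid and hybrid columns of the tests above, and a level is relative to all RNA of its own column.

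In the order of mean levels, neighbours often overlapped. MET4 had its CBS432 columns lowest and overlapping (190 and 193 CPM on average), followed without overlap by haploid UWOPS05_217_3 (211 CPM) and the UWOPS05_217_3 allele in the hybrid (258 CPM). For CBF1 the lowest 3 groups overlapped from one to the next (means of 70.0, 73.1 and 75.5 CPM), and the fourth stood apart at 104 CPM. For MET28 the lowest 3 overlapped likewise (14.2, 17.3 and 20.6 CPM), with the CBS432 allele in the hybrid apart at 24.8 CPM. For MET31 only the step from the UWOPS05_217_3 groups (44.2 and 46.6 CPM) to the CBS432 groups (53.8 and 55.2 CPM) was free of overlap.

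Over the 8 RNA columns the log2 levels of MET4 and CBF1 varied alike (Pearson r = 0.803), as did those of MET28 and MET31 (r = 0.762), while MET4 and MET28 ran opposite to each other (r = -0.805). These are descriptions of 8 columns that come from 6 libraries of 3 kinds of culture. The genes with patterns most like MET4 among 4937 genes were APE4 (r = 0.994), MPP6 and PUS9 (both r = 0.984). Most like MET28 were the overlapping YIR017W-A (r = 0.999), CDC50 (r = 0.984) and YJR012C (r = 0.962). For MET31 they were YPL077C (r = 0.983), FAP7 (r = 0.964) and DSN1 (r = 0.954), and for CBF1 RAD52 (r = 0.969), UTP7 (r = 0.966) and UBP1 (r = 0.952).

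Open chromatin was counted in 1 NFR in the window of each of MET4, MET31 and CBF1, and these differed in size and place. The NFR at MET4, chrXIV:427513-427537, had 25 bp and lay 198 to 222 bp upstream of the start codon. The NFR at CBF1, chrX:548345-548820, had 476 bp, covered the whole window and ran 62 bp into the coding region. That at MET31, chrXVI:480106-480259, had 154 bp and reached only 25 bp into the window, with its near edge 276 bp upstream of the start codon. It also overlapped the start of the small gene YPL038W-A and the end of YPL039W, so that its signal cannot be assigned to MET31 alone. The nearest NFRs were 1598 bp from the start of MET28 and 3918 bp from that of MET32.

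**Figure D3:**
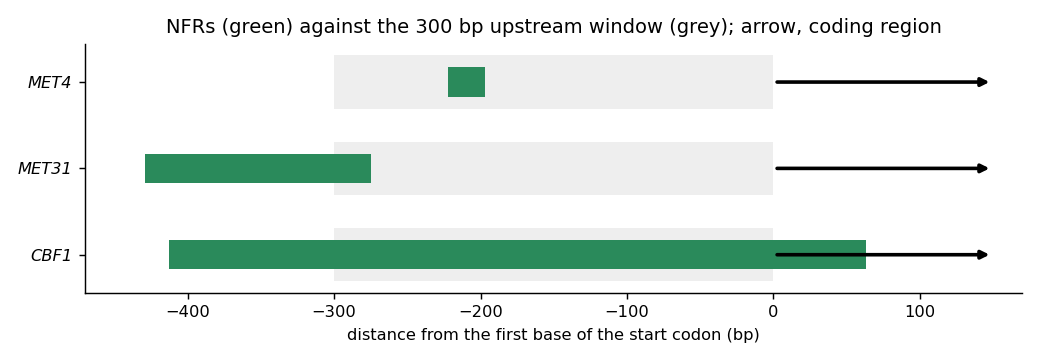
Positions of the 3 NFRs (green bars) on an axis of distance in bp from the first base of the start codon, with the 300 bp windows in grey and the coding regions as arrows. The CBF1 NFR covers its window, the MET4 NFR is 25 bp wide, and the MET31 NFR enters its window by 25 bp.

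The NFR at MET31 had the lower FAIRE signal in S. cerevisiae. It gave 120 and 133 CPM in haploid UWOPS05_217_3 (337 and 558 counts), 132 and 50.0 CPM in haploid DBVPG1373 (402 and 128 counts) and 261 and 238 CPM in haploid CBS432 (697 and 616 counts at sites divergent from UWOPS05_217_3, or 707 and 621 at those divergent from DBVPG1373). Both CBS432 libraries lay above all 4 S. cerevisiae libraries, and the DBVPG1373 replicates differed from each other more than 2-fold. The log2 ratio over CBS432 was -0.95 for UWOPS05_217_3 (SE 0.33, adjusted p = 0.0418) and -1.45 for DBVPG1373 (SE 0.42, adjusted p = 0.0468). In each of these comparisons 1 of 3 NFRs passed in edgeR, against 20.4% and 8.23% of all NFRs, and both used the same CBS432 libraries. The call for UWOPS05_217_3 was lost when any 1 of its 4 libraries was left out (adjusted p between 0.0701 and 0.182). That for DBVPG1373 was lost without DBVPG1373 replicate 2 or either CBS432 library (adjusted p between 0.0955 and 0.184) and with scaling by column totals (adjusted p = 0.0661).

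Between hybrid alleles the same NFR leaned the same way without passing. In the UWOPS05_217_3-CBS432 hybrid the S. cerevisiae allele gave 132 and 122 CPM and the S. paradoxus allele 237 and 131 CPM, so that replicate 1 differed and replicate 2 hardly did. In the DBVPG1373-CBS432 hybrid the alleles gave 152 and 105 CPM against 227 and 202 CPM, which did not overlap. The log2 ratios were -0.38 (SE 0.39, adjusted p = 0.519) and -0.66 (SE 0.27, adjusted p = 0.0935) in edgeR. The S. cerevisiae allele's share of counts was 37.3% and 49.9% in the former and 41.8% and 35.8% in the latter.

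The NFR at MET4 held few counts, and its estimates were imprecise. It gave 9.61 and 8.81 CPM in haploid UWOPS05_217_3 (27 and 37 counts), 5.58 and 1.56 CPM in haploid DBVPG1373 (17 and 4 counts) and 24.3 and 13.5 CPM in haploid CBS432 (65 and 35 counts). All S. cerevisiae libraries lay below both CBS432 libraries, and neither ratio passed in edgeR, with log2 values of -1.00 for UWOPS05_217_3 (SE 0.63, adjusted p = 0.282) and -2.34 for DBVPG1373 (SE 0.84, adjusted p = 0.0959). Leaving out replicate 1 of DBVPG1373 brought the latter to -3.35 (adjusted p = 0.0416). In the hybrids the alleles gave 24 against 37 counts and 11 against 17 counts for UWOPS05_217_3 and CBS432, and 23 against 36 and 5 against 28 for DBVPG1373 and CBS432. The CBS432 allele had more counts in all 4 hybrid libraries, but the log2 ratios of -0.62 (SE 0.72, adjusted p = 0.580) and -1.40 (SE 0.70, adjusted p = 0.152) did not pass.

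The NFR at CBF1 held the most counts and showed no detectable difference between strains. It gave 826 and 601 CPM in haploid UWOPS05_217_3, 909 and 638 CPM in haploid DBVPG1373 and 672 and 863 CPM in haploid CBS432 (counts between 1635 and 2766). All 3 strains overlapped, and the log2 ratios over CBS432 were -0.10 (SE 0.34, adjusted p = 0.876) and 0.01 (SE 0.38, adjusted p = 0.994) in edgeR. Between hybrid alleles they were -0.25 (SE 0.23, adjusted p = 0.461) with UWOPS05_217_3 and -0.24 (SE 0.16, adjusted p = 0.269) with DBVPG1373. The CBS432 allele was higher in all 4 hybrid libraries, with S. cerevisiae shares of 46.3%, 45.1%, 48.7% and 42.9%.

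Counting all 3 NFRs, 0 of 3 passed between the alleles of either hybrid, against 24.8% of all NFRs with UWOPS05_217_3 and 29.8% with DBVPG1373. In edgeR 0 and 1 of 3 had an unadjusted p under 0.05, the latter being the NFR at MET31, and DESeq2 also called 0 in these and the following FAIRE comparisons. Between UWOPS05_217_3 and DBVPG1373 0 of 3 passed, against 0.114% of all NFRs, none had an unadjusted p under 0.05, and the log2 ratios were 1.32 (SE 0.69) for MET4, 0.48 (SE 0.45) for MET31 and -0.17 (SE 0.33) for CBF1. For trans effects in FAIRE 0 of 3 passed, against 0.0572% of all NFRs, none had an unadjusted p under 0.05, and the values were -0.36 (SE 0.89), -0.60 (SE 0.47) and 0.14 (SE 0.34). Scaling by totals put the median trans value of all NFRs at -0.10 and TMM per allele at 0, so these values are to be read against that shift. The study's own trans test, a Bayesian binomial model, called far more NFRs, so the share of 0.0572% belongs to the edgeR test used here.

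**Figure D4:**
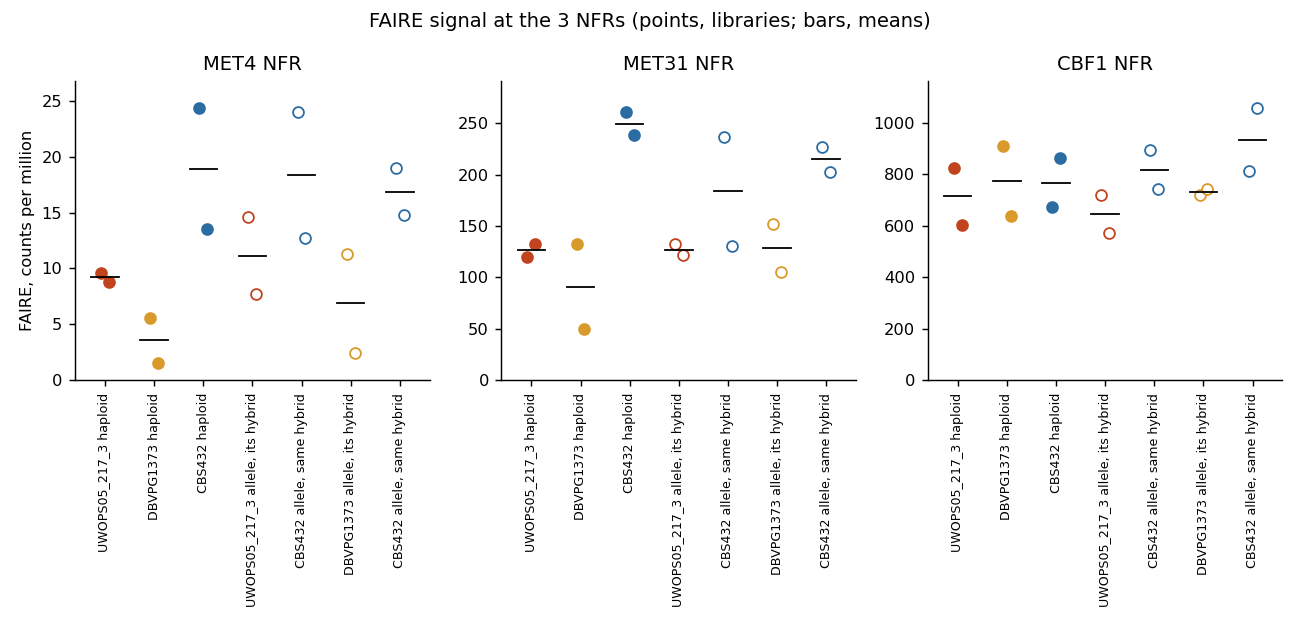
FAIRE signal in CPM (y axes from 0) at the NFRs of MET4, MET31 and CBF1 for the 3 haploid strains and the alleles of both hybrids on the x axis, with 1 point per library and bars at the means. At the MET31 NFR the CBS432 haploids (261 and 238 CPM) lie above all S. cerevisiae haploids (50.0 to 133 CPM), and at the CBF1 NFR the strains overlap.

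Side by side, the FAIRE and RNA ratios of a gene did not always point the same way. Between the UWOPS05_217_3 and CBS432 alleles of the hybrid, MET31 had log2 values of -0.38 in FAIRE and -0.25 in RNA, MET4 had -0.62 and 0.43, and CBF1 had -0.25 and 0.45, and of these only the RNA values passed. YPL038W-A, a gene at the MET31 NFR chosen here after its values were seen, had log2 RNA ratios of -1.34 in the haploids (adjusted p = 0.00239 in edgeR) and -1.83 between alleles (adjusted p = 2.64e-05). Its allele ratio was -2.74 in hybrid replicate 1 and -0.91 in replicate 2, with S. cerevisiae shares of 13.0% and 34.7%. YPL039W, the other gene that this NFR overlaps and likewise outside the rule, had a haploid RNA ratio of -0.07 (adjusted p = 0.563 in edgeR) and -0.57 between alleles (adjusted p = 4.90e-07).

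Among the listed genes of the sulfur pathway, most of those that differed between the haploids were higher in UWOPS05_217_3. The list holds genes of sulfate uptake, sulfur assimilation and sulfur amino acid synthesis, and also related genes such as MMP1, MHT1 and MET13. Of its 30 genes 24 were measured. In the haploids 12 were higher in UWOPS05_217_3 and 5 in CBS432 (edgeR, against 28.2% and 26.4% of all genes), with a median log2 ratio of 0.31 against 0.01 for all genes. The highest ratio was that of MET3, which encodes ATP sulfurylase, the first enzyme of sulfate assimilation. MET3 gave 527 and 463 CPM in haploid UWOPS05_217_3 and 50.8 and 35.6 CPM in haploid CBS432, a log2 ratio of 3.51 (SE 0.16, adjusted p = 4.86e-06) or 11.4-fold. MET17, the sulfhydrylase that forms homocysteine, and MET10, a subunit of sulfite reductase, had ratios of 2.11 (SE 0.16, adjusted p = 3.80e-05) and 1.98 (SE 0.14, adjusted p = 3.23e-05). Lower in UWOPS05_217_3 were STR3, a cystathionine beta-lyase (-1.98, SE 0.17, adjusted p = 7.07e-05), SUL1, a sulfate permease (-1.76, SE 0.14, adjusted p = 4.24e-05), and MMP1, an S-methylmethionine permease (-1.01, SE 0.13, adjusted p = 0.000398).

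Between the alleles in the hybrid 8 of the 24 genes were higher for UWOPS05_217_3 and 14 for CBS432 (edgeR), where 31.8% and 36.7% of all genes were, with a median log2 ratio of -0.26 against -0.03 for all genes. MET3 then gave 240 and 210 CPM for the UWOPS05_217_3 allele and 154 and 151 CPM for the CBS432 allele, a log2 ratio of 0.55 (SE 0.06, adjusted p = 6.51e-16). MET17 had 0.55 (SE 0.04, adjusted p = 6.12e-30) and MET13, a methylenetetrahydrofolate reductase, 0.45 (SE 0.15, adjusted p = 0.00472), which was 0.20 in replicate 1 and 0.71 in replicate 2. STR3 and SUL1 kept ratios of -2.01 (SE 0.23, adjusted p = 2.21e-14) and -1.98 (SE 0.16, adjusted p = 2.77e-24), near those of the haploids, and MET8, which acts in siroheme synthesis, had -1.29 (SE 0.12, adjusted p = 2.39e-19).

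For the trans effect 10 of the 24 genes were higher and 2 lower (edgeR, against 15.2% and 10.6% of all genes), with a median of 0.28 against 0.07 for all genes. The largest were 2.99 for MET3 (SE 0.12, adjusted p = 6.26e-07), 2.28 for MET10 (SE 0.09, adjusted p = 5.42e-07) and 2.03 for MET5, the other subunit of sulfite reductase (SE 0.08, adjusted p = 5.42e-07). The genes with negative values that passed were MMP1 (-0.61, SE 0.16, adjusted p = 0.0199) and MHT1, an S-methylmethionine-homocysteine methyltransferase (-0.53, SE 0.12, adjusted p = 0.0108). MMP1 was lost without hybrid replicate 2 (adjusted p = 0.111) and MHT1 without hybrid replicate 1 (adjusted p = 0.0586). Beside these, the trans values of the regulators lay between -0.40 and 0.56. With 1 library left out the number of higher genes stayed between 9 and 13 and that of lower genes between 1 and 5, where leaving out replicate 2 of either haploid strain gave 5 and leaving out either hybrid library gave 1.

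In the hybrid the S. paradoxus alleles of 13 of the 24 genes rose from their haploid level and 0 fell (edgeR, against 2.3% and 4.99% of all genes, while DESeq2 called 1 lower), with a median log2 difference of 0.43 against -0.00 for all genes. The MET3 allele of CBS432 rose 3.58-fold (log2 1.84, SE 0.15, adjusted p = 8.17e-05). Of the S. cerevisiae alleles 4 rose and 6 fell (against 11.4% and 11.3% of all genes), with a median of -0.12 against -0.01, and that of MET3 fell by 1.05 on the log2 scale (SE 0.10, adjusted p = 0.000280). The S. paradoxus alleles of MET4, MET28, MET31 and CBF1 had differences of -0.00 to 0.28 over the same libraries, and none passed. Leaving out either hybrid library brought the number of S. cerevisiae alleles that rose to 2, and without replicate 2 of the hybrid 3 fell. With any 1 library left out, 10 to 12 of the S. paradoxus alleles rose and 0 fell.

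**Figure D5:**
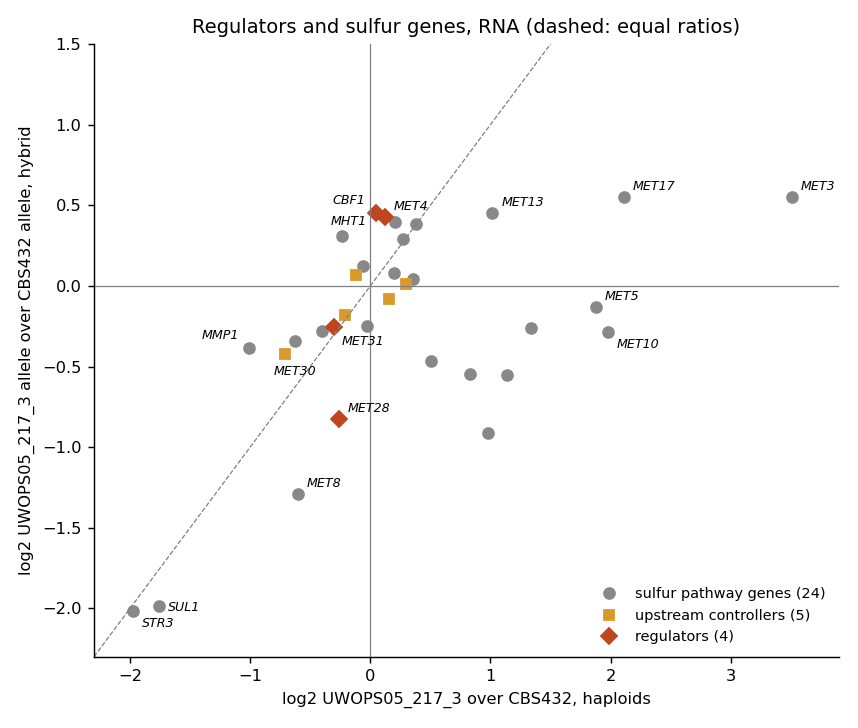
Log2 RNA ratios of UWOPS05_217_3 over CBS432 in the haploids (x axis) and between the hybrid alleles (y axis) for 24 sulfur pathway genes, 5 upstream controllers and the 4 regulators, with equal ratios on the dashed line. MET3, at 3.51 and 0.55, lies far to the right of the line, STR3 and SUL1 lie near it, and MET4 and CBF1 lie above it.

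Of 6 genes that act on Met4 or its partners 5 were measured. MET30, the F-box protein that targets Met4, gave 122 and 122 CPM in haploid UWOPS05_217_3 and 202 and 194 CPM in haploid CBS432, a log2 ratio of -0.71 (SE 0.08, adjusted p = 0.000238 in edgeR). Its UWOPS05_217_3 allele in the hybrid gave 142 and 127 CPM and its CBS432 allele 189 and 168 CPM, a ratio of -0.42 (SE 0.06, adjusted p = 1.14e-09). The trans effect of MET30 was -0.28 (SE 0.09, adjusted p = 0.0453), and it was lost without replicate 1 of either haploid strain or without either hybrid library (adjusted p between 0.0691 and 0.220). In the haploids 1 of the 5 was higher and 1 lower (against 28.2% and 26.4% of all genes), between alleles 0 and 2 (31.8% and 36.7%), and for trans effects 1 and 1 (15.2% and 10.6%). The S. cerevisiae alleles of 1 rose and of 0 fell in the hybrid (11.4% and 11.3%), and 0 of the S. paradoxus alleles passed in either direction (2.3% and 4.99%). The gene called higher in the haploids, named here after its values were seen, was HRT1 (0.29, SE 0.10, adjusted p = 0.0407). It was not called with any 1 of the 4 libraries left out, and the higher and the lower trans call each dropped to 0 without either hybrid library. MET30 RNA was thus lower for UWOPS05_217_3 than for CBS432 both in the haploids and between the hybrid alleles. Whether this bears on the pathway genes was not tested.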

How the data were processed

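FAIRE-Seq and RNA-Seq tables of 20 samples were used. Reads were mapped by the authors with bwa and samtools to strain assemblies and a CBS432 reference, hybrid reads to both genomes together, and they deposited whole-number counts summed per NFR or gene at sites that differ between the species, without normalization and 1 library per table. Reads spanning more than 1 such site could have entered the counts repeatedly, and tool versions are not given in the sources used here. CBS432, labelled as S. cerevisiae, was treated as S. paradoxus, as the study states. The deposited RNA values of the DBVPG1373 cross are of another, unstated kind and were not used for tests.

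Counts were tested with edgeR 4.0.16 (quasi-likelihood F-test) in R 4.3.3 over all genes or NFRs, with Benjamini-Hochberg adjustment at 0.05. RNA genes needed a mean count of 10. The SE given with an edgeR ratio was derived from the test, as the absolute log2 ratio divided by the square root of its F value. Haploids were scaled by TMM, hybrid alleles by 1 size per library with the library as a block, and trans effects by totals with replicate numbers as a block, after the study's model. The study's Bayesian binomial model itself was not fitted. Alternatives were DESeq2 1.42.0, another scaling, count filters of 100 or none, the block, a threshold of 0.01 and leaving out each library. Python 3.11.15, pandas 2.3.3, numpy 2.4.6, scipy 1.17.1 and matplotlib 3.10.9 were used. The fits were run on simulated data with planted changes larger than the RNA ratios of the regulators, so that run does not bear on calls of their size. Replicates differed by more than sampling noise (chi-square over its degrees of freedom was 20.2 to 84.6 in FAIRE and 49.1 to 157 in RNA).

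Named beside the regulators are the 3 pathway or controller genes with the largest ratio in each direction past the threshold in the haploid, allele and trans comparisons, with a mean count of at least 100 and 1 sign in every pairing of replicates, and the 3 genes most correlated with each regulator (log2 CPM, pseudocount 0.5). MET30 is also named by that rule. The regulators and lists were chosen with earlier results of these data known. Symbols of the deposited gene identifiers came from the R64 gene table of RefSeq, in which 4597 of 4995 identifiers were matched.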

Additional observations from a re-analysis of the deposited data

Results flagged for a closer look

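The following RNA ratios differed between the haploid strains and the hybrid alleles by a test of the difference itself, the trans term in edgeR. For MET4 the haploid log2 ratio was lower than that of the alleles by -0.29 (adjusted p = 0.0299), the only regulator with a call. That call was lost without the replicate block in the haploids (adjusted p = 0.0748 in edgeR). Among pathway genes the difference was 2.99 for MET3, 2.28 for MET10 and 2.03 for MET5, all toward a higher ratio in the haploids. It was -0.61 for MMP1, -0.53 for MHT1 and -0.28 for MET30. Groups of 2 samples were too small for a search for single outlying libraries.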

How the results depend on the processing

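With 2 libraries per group few calls were stable. Over the regulators and their NFRs, settings other than leaving out a library kept direction and call for 187 of 204 values, and leaving out a library for 93 of the 126 values that could then be tested. These counts hold repeated and fixed checks. A threshold of 0.01 cannot add a call, the count filters hardly altered the fits, and trans fits without a haploid library repeat each other in pairs. With DESeq2 1 regulator differed between haploids (MET31) in place of 0, and with a threshold of 0.01 the number past it was 0 in place of 1 for trans effects in RNA, 0 in place of 2 for the S. cerevisiae allele between hybrid and haploid, and 0 in place of 1 for FAIRE of UWOPS05_217_3 and of DBVPG1373 against CBS432. TMM per allele gave 2 trans effects in RNA, and column totals gave 0 FAIRE calls for DBVPG1373 against CBS432 and turned the value at CBF1 to -0.024. DESeq2 turned the S. paradoxus allele of MET4 between hybrid and haploid to 0.00091.

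With 1 library left out, the number of regulators past the threshold ranged from 0 to 1 between haploids, from 0 to 3 for trans effects in RNA and from 0 to 2 for the S. cerevisiae allele. For FAIRE it was 0 throughout for UWOPS05_217_3 and 0 to 2 for DBVPG1373. Values that changed sign, none past the threshold in any of these fits, ranged from -0.10 to 0.18 for CBF1 RNA between haploids and from -0.20 to 0.14 for MET31 in trans. They ranged from -0.46 to 0.10 for the S. cerevisiae allele of MET28, from -0.052 to 0.051 for the S. paradoxus allele of MET4 and from -0.065 to 0.16 for that of MET31. For FAIRE at CBF1 they ranged from -0.33 to 0.18 for UWOPS05_217_3 and from -0.21 to 0.29 for DBVPG1373, and for FAIRE in trans from -0.72 to 0.0056 at MET4 and from -0.27 to 0.55 at CBF1. Between hybrid alleles, where a lone library leaves no test, values ranged from 0.42 to 0.43 for MET4, 0.32 to 0.58 for CBF1, -0.96 to -0.70 for MET28 and -0.43 to -0.08 for MET31.

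The haploid replicates share only a number, so a replicate block was an alternative in the haploid and the hybrid-against-haploid comparisons. The trans fits held that block, after the study's model, and the alternative there was to leave it out. Deviations of the haploid replicates from the group means correlated at 0.256 in RNA. In FAIRE they correlated at 0.184 and 0.281 between the species in the 2 crosses and at 0.526 between UWOPS05_217_3 and DBVPG1373. With the replicate block 1 regulator differed between haploids (MET31, -0.30, adjusted p = 0.0175) and 2 NFRs between DBVPG1373 and CBS432 (MET4, -2.45, adjusted p = 0.0136). With no replicate block 0 trans effects in RNA passed (MET4, -0.29, adjusted p = 0.0748), and MET31 did not pass between alleles (-0.26, adjusted p = 0.115). The block changed no other call of a regulator, though it made the adjusted p of MET4, CBF1 and MET28 between alleles much smaller. Over all features it gave 736 NFRs in place of 288 for DBVPG1373 against CBS432, 112 in place of 4 for UWOPS05_217_3 against DBVPG1373, and 1862 genes in place of 1134 for the S. cerevisiae allele. Without it there were 732 in place of 1288 trans effects in RNA, and 456 in place of 866 NFRs between the alleles of the UWOPS05_217_3 hybrid.

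DESeq2 called 593 in place of 364 genes for the S. paradoxus allele, 474 in place of 288 NFRs for DBVPG1373 against CBS432 and 19 in place of 4 for UWOPS05_217_3 against DBVPG1373. With 1 library left out, the counts fell as low as 553 for trans effects in RNA, 504 for the S. cerevisiae allele, 193 for the S. paradoxus allele, 399 for FAIRE of UWOPS05_217_3 and 80 for FAIRE of DBVPG1373, which also reached 639. They rose to 105 for FAIRE of UWOPS05_217_3 against DBVPG1373 and to 13 in place of 2 for trans effects in FAIRE. The cause of these shifts was not tested. The NFR at MET4, with 4 to 65 counts per column, is limited by depth, and differences there are not detectable unless large.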
